A study of Mus musculus with 14 samples.

Results

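Lung RNA of Men1 KO mice was compared with lung RNA of wild-type mice. Men1 KO is represented by 4 libraries, numbered KO-6075, KO-6076, KO-6084 and KO-6086, and wild type by 4 libraries, numbered WT-6074, WT-6094, WT-6097 and WT-6100. These are the 8 of the 14 libraries of the series whose titles carry Men1, with the genotypes Men1 KO and WT in their labels, and the other libraries were made from a Kmt2a knockout and its own wild type. Total RNA was sequenced from each sample, and the labels name lung as tissue. The extraction protocol in the same labels speaks of macrophages from the peritoneal cavity, so the tissue is stated in conflicting ways. The labels give no strain, age, promoter or Cre driver, and do not say whether Men1 was removed from every cell or from some. They also do not say that the libraries of a group came from separate animals, so p-values measure the spread between these samples, which may be technical.

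Men1 encodes menin, a nuclear scaffold protein without enzyme activity of its own. Menin binds histone methyltransferases of the MLL family, among them the product of Kmt2a, and holds them at gene starts, where they place a methyl mark that goes with active transcription. Inherited loss of MEN1 causes endocrine tumours in people, and the gene is also mutated in carcinoid tumours of the lung.

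The deposited table holds 772 genes, each with a read count and a normalized count per library, a log2 fold change, a p-value and, for 215 genes, an adjusted p. A normalized count is a read count after division by the size factor of its library. These factors ran from 0.811 in library KO-6086 to 1.38 in library KO-6076. The read counts listed sum to between 11910 and 49541 per library, but this covers the selected genes and is not the depth, which is unknown. All 772 genes have a p-value below 0.05 and at least a 2-fold difference in either direction, so the table shows what the authors picked and not the whole transcriptome. Men1 and Kmt2a have no row in it, and the knockout could not be checked on its own gene. Of 41 gene lists for cell types, pathways and technical signs, 26 have no member in the table. Among them are those for alveolar type 1 and type 2 cells, for ciliated cells and for alveolar, interstitial and peritoneal macrophages. The named tissue could therefore not be checked on the markers of these cells. A few airway secretory and basal cell genes are in the table and are given below. A gene with no row has no value here, in either direction.

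Only a small part of the table passed the test. The genes of the table that passed were mostly higher in Men1 KO, as was the table as a whole. A gene is called here where the adjusted p in the authors' deposited table is below 0.05. By this rule 13 of the 772 genes were called (1.68%), 10 higher in Men1 KO (1.3%) and 3 lower (0.389%). Among the 215 genes that carry an adjusted p the called share is 6.05%. The 557 genes without one are the low ones, with means over the 8 libraries of up to 10.82 normalized counts, against 10.83 or more in the genes that have one. The ratio of adjusted p to p in the authors' deposited table gives a total of 18573 tests, and ranks read from it put between 63 and 65 genes below 0.05 in all (0.339% to 0.35%). Between 50 and 52 of these are therefore not in the table used here. Of all the genes in the table, 541 (70.1%) were listed as higher in Men1 KO and 231 as lower.

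**Figure D1:**
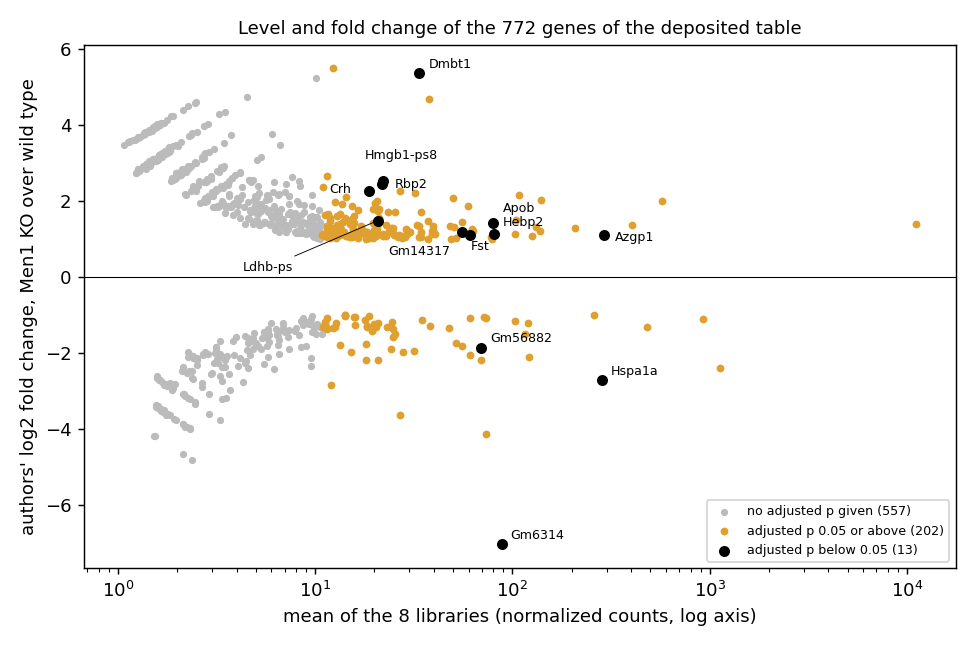
Each point is 1 of the 772 genes, placed by its mean over the 8 libraries (normalized counts, log axis) and by the authors' log2 fold change of Men1 KO over wild type. The 13 black points have an adjusted p below 0.05, the 202 orange points a higher one and the 557 grey points none, and no point lies between -1 and 1 because of the way the table was made.

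In 274 genes (35.5% of the table) the libraries of the groups did not overlap, with all Men1 KO libraries above all wild-type libraries in 195 (25.3%) and below them in 79 (10.2%). The genes had been picked on the same libraries, so these shares describe the table. Among the 13 called genes 11 did not overlap. For single genes, an exact permutation test over the 70 regroupings of 4 against 4 libraries cannot give a p below 0.0286, and the non-overlapping genes named below sit at that smallest value. In bulk RNA, a change in the number of cells of a type cannot be told apart from a change in RNA per cell.

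Of the 10 called genes that were higher in Men1 KO, 7 code for proteins and 3 do not. Azgp1 encodes zinc-alpha-2-glycoprotein, a secreted protein that promotes the release of fat from adipocytes. It had 327, 308, 484 and 479.6 normalized counts in the Men1 KO libraries (in the order KO-6075, KO-6076, KO-6084 and KO-6086, used throughout), against 159.6, 245, 232 and 108 in the wild-type libraries (in the order WT-6074, WT-6094, WT-6097 and WT-6100, used throughout). All 4 Men1 KO libraries lay above all 4 wild-type libraries, and the means were 399.6 ± 95.3 in Men1 KO and 186 ± 64.2 in wild type (SD, n = 4 each). Azgp1 rose with a log2 fold change of 1.10 and an adjusted p of 0.0108 in the authors' deposited table. The gene is at chr5:137981520-137990233 on the plus strand of GRCm38.

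Apob encodes the main structural protein of chylomicrons and of very low and low density lipoproteins. Its levels were 99.1, 107, 116 and 145 normalized counts in Men1 KO, against 17.7, 23.4, 64.7 and 67.4 in wild type. The groups did not overlap, and the wild-type libraries fell into a low pair and a higher pair. Apob rose by a log2 fold change of 1.42, with an adjusted p of 0.0414 in the authors' deposited table, and lies at chr12:7977648-8016835 on the plus strand.

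Hebp2 encodes a heme-binding protein of the SOUL family. It stood at 103, 113, 115 and 113 normalized counts in Men1 KO, against 30.7, 82.0, 41.6 and 47.7 in wild type. The Men1 KO libraries were close together, at 111 ± 5.50, while wild type spread over 50.5 ± 22.1 (SD, n = 4 each), with no overlap. Hebp2, at chr10:18539498-18546076 on the minus strand, rose by 1.14 on the log2 scale with an adjusted p of 0.0147 in the authors' deposited table.

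Fst encodes follistatin, a secreted protein that binds activin and keeps it from its receptors. It had 85.0, 72.6, 66.3 and 83.8 normalized counts in Men1 KO, against 29.6, 53.9, 21.3 and 32.1 in wild type. The lowest Men1 KO library lay above the highest wild-type library. Fst, at chr13:114452290-114458951 on the minus strand, rose with a log2 fold change of 1.18 and an adjusted p of 0.0202 in the authors' deposited table. Its exons share 115 bases with those of an antisense gene, Gm47040, and the library kit keeps no strand, so reads there cannot be assigned to 1 of them.

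Of the 33 genes in the list for activin, TGF-beta and BMP signalling, 3 are in the table, and Fst is the only called one. Nog encodes noggin, a secreted inhibitor of BMP ligands. It had 30.2, 12.3, 22.6 and 25.9 normalized counts in Men1 KO, against 2.36, 12.9, 6.76 and 9.33 in wild type, and was not called (adjusted p 0.124 in the authors' deposited table). Only library KO-6076 overlapped with wild type. Amh encodes anti-Muellerian hormone, a ligand of the same superfamily. It was listed lower, at 4.72, 10.2, 11.3 and 11.1 normalized counts in Men1 KO, against 22.5, 25.8, 17.4 and 23.8 in wild type, with no overlap and an adjusted p of 0.124 in the authors' deposited table.

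Crh encodes corticotropin-releasing hormone, the hypothalamic peptide that drives the pituitary-adrenal axis. Its levels were 44.4, 11.6, 35.6 and 33.3 normalized counts in Men1 KO, against 2.36, 10.5, 4.83 and 8.29 in wild type. Library KO-6076 was barely above the highest wild-type library, and the other 3 were at more than 3 times that level. Crh, at chr3:19693401-19695396 on the minus strand, rose by a log2 fold change of 2.26 with an adjusted p of 0.0150 in the authors' deposited table. From the list of 36 neuropeptide, hormone and granin genes, the table holds 1 other, Nppc, which encodes C-type natriuretic peptide. Nppc averaged 5.53 ± 1.26 normalized counts in Men1 KO and 11.7 ± 4.32 in wild type (SD, n = 4 each) and carries no adjusted p. Outside the list, the table also holds the neuropeptide precursor genes Pnoc and Vgf. Both were listed higher, with log2 fold changes of 2.54 and 1.30 in the authors' deposited table, and carry no adjusted p. None of the 13 neuroendocrine cell markers, such as Calca and Chga, is in the table.

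Rbp2 encodes the retinol-binding protein of the absorptive cells of the small intestine. It had 68.9, 10.9, 49.3 and 18.5 normalized counts in Men1 KO, against 3.55, 9.37, 3.87 and 10.4 in wild type. The groups did not overlap, but the lowest Men1 KO library, KO-6076, was close to the highest wild-type library. Rbp2, at chr9:98486115-98509781 on the plus strand, rose with a log2 fold change of 2.45 and an adjusted p of 0.0292 in the authors' deposited table. It is the only 1 of 19 retinoid genes in the table, so no other gene of vitamin A handling is at hand to set beside it. Library KO-6076 was the lowest Men1 KO library for Rbp2, Crh, Nog and Azgp1 alike.

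Dmbt1 encodes a large scavenger receptor cysteine-rich glycoprotein that mucosal epithelia secrete. It was listed at 4.72, 7.26, 11.3 and 240.4 normalized counts in Men1 KO, against 1.18, 1.17, 1.93 and 2.07 in wild type. All Men1 KO libraries were above all wild-type libraries, but library KO-6086 stood more than 20 times above the others. Dmbt1, at chr7:131032053-131121630 on the plus strand, rose by 5.36 on the log2 scale with an adjusted p of 0.0472 in the authors' deposited table. Without library KO-6086 the log2 ratio of the group means was 2.29, against 5.37 with it.

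**Figure D2:**
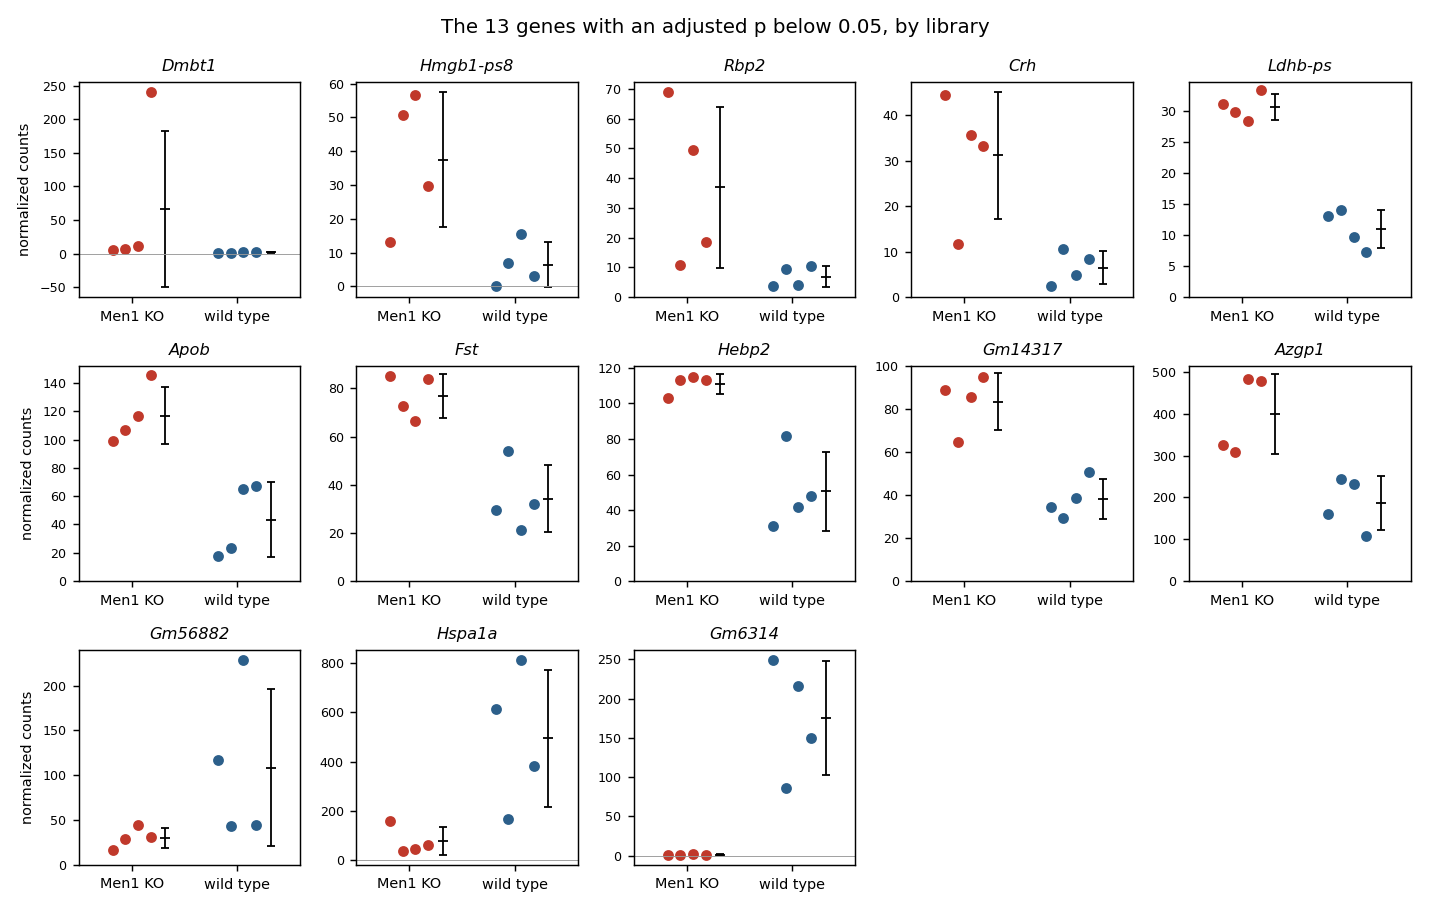
Each panel is 1 of the 13 genes with an adjusted p below 0.05, with normalized counts on the vertical axis, Men1 KO libraries in red on the left, wild-type libraries in blue on the right, and the mean with SD as a bar (n = 4 each). Groups overlap in Hmgb1-ps8 and Gm56882, and in Dmbt1 library KO-6086 at 240.4 sets the Men1 KO mean.

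The gene with the smallest p-value of the table, Gm6314, was nearly absent from Men1 KO. GENCODE M21 lists it as a processed pseudogene, that is, an inserted copy of a spliced transcript, at chr7:140315813-140316055 on the plus strand of GRCm38. It had 0.944, 0.726, 2.43 and 1.23 normalized counts in Men1 KO, against 249, 85.5, 215 and 150.3 in wild type. The Men1 KO values stand for 1, 1, 3 and 1 reads. Gm6314 fell by a log2 fold change of -7.03, with an adjusted p of 2.6e-21 in the authors' deposited table, and was the only gene also called by every count test run as an alternative.

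Other called genes are pseudogenes or have no coding product. Ldhb-ps, a processed pseudogene at chr19:21937380-21938381, had 31.2, 29.8, 28.3 and 33.3 normalized counts in Men1 KO, against 13.0, 14.1, 9.66 and 7.26 in wild type. The groups were well apart, and its adjusted p is 0.0202 in the authors' deposited table. Hmgb1-ps8, a processed pseudogene at chr10:22262742-22263367, had 13.2, 50.8, 56.6 and 29.6 in Men1 KO, against 0, 7.03, 15.5 and 3.11 in wild type. Library KO-6075 lay below library WT-6097, so the groups overlapped, and the adjusted p is 0.0400 in the authors' deposited table. The parent genes Ldhb and Hmgb1 have no row, and since a pseudogene shares sequence with its parent, how reads were divided between them is uncertain.

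Gm14317, a long intergenic noncoding RNA at chr2:164550530-164559730, had 88.7, 64.6, 85.7 and 94.9 normalized counts in Men1 KO, against 34.3, 29.3, 38.7 and 50.8 in wild type. The groups did not overlap, and its adjusted p of 0.0108 in the authors' deposited table is matched among the genes that rose only by that of Azgp1. Gm56882, whose ID is not in GENCODE M21, had 16.1, 28.3, 44.5 and 30.8 in Men1 KO, against 117, 43.3, 229 and 44.6 in wild type. Libraries WT-6074 and WT-6097 were high and the others near the level of library KO-6084, and its adjusted p is 0.0473 in the authors' deposited table. Without library WT-6097 its log2 ratio of group means was -1.19, against -1.86 with it. In the whole table, 73 genes are processed pseudogenes, 54 listed higher and 19 lower, and 3 of them were called, beside 541 higher and 13 called of all 772.

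The inducible heat shock protein genes Hspa1a and Hspa1b were both listed lower in Men1 KO, and Hspa1a passed the test. Hspa1a and Hspa1b encode nearly the same cytosolic HSP70 chaperone, which is made when proteins unfold under heat, handling or other stress. Hspa1a had 159.6, 37.8, 44.5 and 61.6 normalized counts in Men1 KO, against 612, 166, 815 and 384 in wild type. The highest Men1 KO library, KO-6075, was just below the lowest wild-type library, WT-6094. Hspa1a, at chr17:34969190-34972156 on the minus strand, fell by a log2 fold change of -2.71 with an adjusted p of 0.0202 in the authors' deposited table. Without library KO-6075 the log2 ratio of group means was -3.37, against -2.70 with it.

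Hspa1b was listed at 316, 235, 445 and 441 normalized counts in Men1 KO, against 1616, 368, 4640 and 940.3 in wild type. Library WT-6094 fell within the Men1 KO range and library WT-6097 was far above the rest. Hspa1b was not called, with a log2 fold change of -2.40 and an adjusted p of 0.120 in the authors' deposited table, and without library WT-6097 its log2 ratio was -1.44. Within wild type both genes had the same order, with library WT-6097 highest, then WT-6074, then WT-6100, then WT-6094. In Men1 KO the order was not shared, since library KO-6075 was highest for Hspa1a and library KO-6084 for Hspa1b.

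The promoters of both genes are shown because heat shock factor 1 drives this pair through elements at the gene start. The sequences are RefSeq promoters on GRCm38.p6, from 250 bases before the start to 50 bases after it, written on the minus strand from 5′ to 3′. Hspa1a covers chr17:34972107-34972406 and Hspa1b covers chr17:34959189-34959488. Capitals mark the single match to GAANNTTC, the core of a heat shock element, which reads the same on both strands.
Hspa1a promoter: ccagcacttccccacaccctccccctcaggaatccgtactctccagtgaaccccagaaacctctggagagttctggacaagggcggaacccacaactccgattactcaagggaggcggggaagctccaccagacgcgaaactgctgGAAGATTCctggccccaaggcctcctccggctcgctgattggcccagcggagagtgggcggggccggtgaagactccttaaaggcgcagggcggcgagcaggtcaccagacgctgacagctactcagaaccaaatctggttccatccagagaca
Hspa1b promoter: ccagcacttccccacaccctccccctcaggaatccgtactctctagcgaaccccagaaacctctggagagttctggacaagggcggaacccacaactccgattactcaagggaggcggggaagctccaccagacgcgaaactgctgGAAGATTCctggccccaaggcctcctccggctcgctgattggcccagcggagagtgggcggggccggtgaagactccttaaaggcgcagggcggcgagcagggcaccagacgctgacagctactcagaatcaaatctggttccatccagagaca
The match starts at base 147 in both windows, 104 bases before the gene start, and 296 of the 300 bases (98.7%) are equal. The motif is present in 2582 of 32851 RefSeq promoter windows of this length (7.86%), and a match describes the letters and not a bound site. The transcripts are also alike: 58.8% of the 50-base words of Hspa1a occur in Hspa1b, and 62.3% of those of Hspa1b in Hspa1a. The division of reads between the copies is therefore uncertain. Hspa1a exons also share 564 bases with Gm20481 on the opposite strand.

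Of the 21 heat shock and chaperone genes listed, the other 19 have no row, among them Hspa8, Dnajb1, Hsph1 and Hspb1. Summed over the pair, levels were 476, 273, 489 and 503 normalized counts in Men1 KO, against 2229, 534, 5455 and 1324 in wild type. The sums did not overlap, but the pair had been picked on these libraries, so this describes the table. None of 26 immediate early genes, such as Fos, Egr1 and Atf3, is in the table, and of 15 genes that respond to dissociation or sampling it holds this pair alone. Handling of the tissue was not recorded in the labels, and its part in the levels of the pair was not tested.

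**Figure D3:**
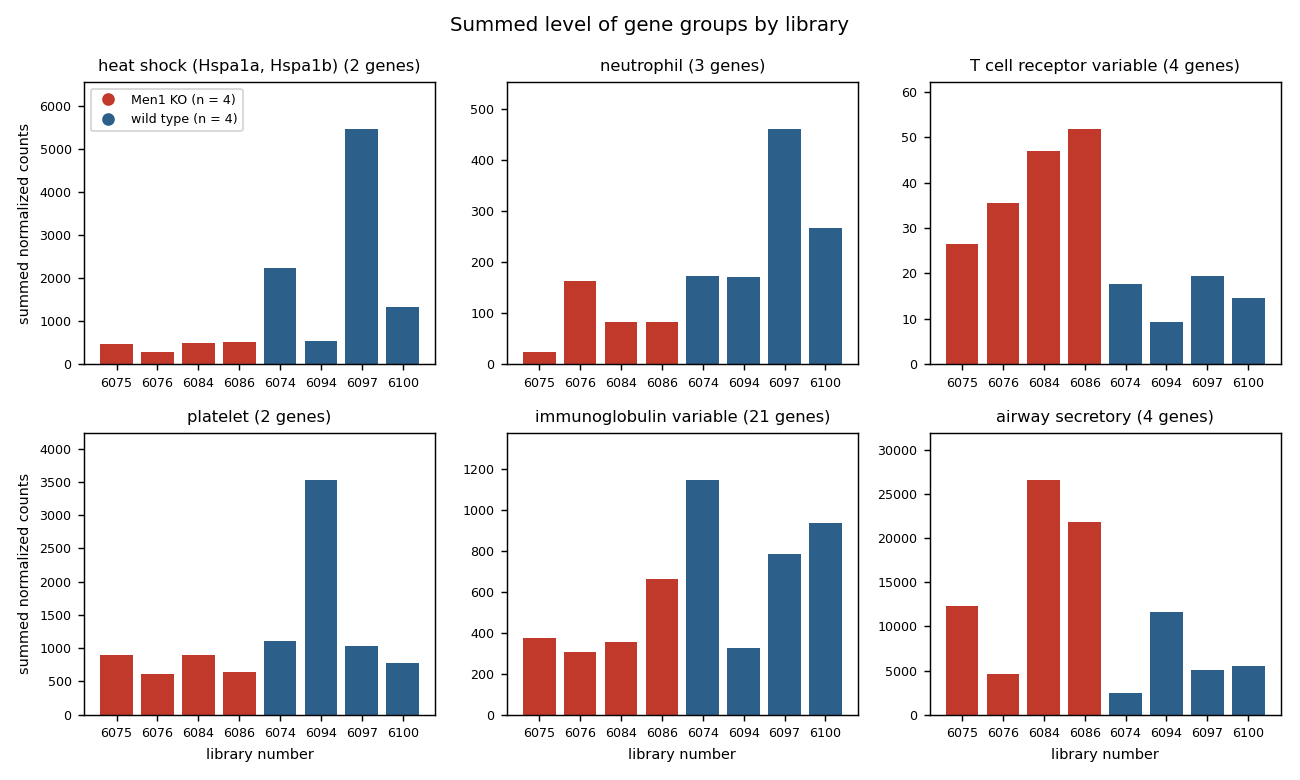
Bars give the summed normalized counts of the table's members of 6 gene groups in each library, Men1 KO in red on the left and wild type in blue on the right, with 1 bar per library and vertical axes from 0. The heat shock, neutrophil and T cell receptor sums do not overlap between the groups, and the platelet sum is highest in library WT-6094, at 3530. The members were picked on the same libraries, so these sums describe the table. Singly, 1 of 2 heat shock, 0 of 3 neutrophil and 1 of 4 T cell receptor genes do not overlap.

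Of the 41 lists, that of liver and plasma protein genes has the most members in the table, and all of these were listed higher in Men1 KO. Of 32 such genes, 14 are in the table, 14 with a positive log2 fold change and 2 called, Azgp1 and Apob, which are also the only ones without overlap. In the whole table, picked at 2-fold or more, 70.1% of genes were listed higher, 1.68% were called and 35.5% did not overlap. The median log2 fold change of the 14 is 1.83 in the authors' deposited table, beside 1.88 over all 541 genes listed higher. The other members pass the limits of the table with adjusted p-values well above 0.05 or with none.

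Alb, the gene of serum albumin, had 624, 493, 83.3 and 2451 normalized counts in Men1 KO, against 132, 102, 247 and 428 in wild type. Library KO-6086 was highest by far, and library KO-6084 was below every wild-type library, so the groups overlapped. Apoa1, the gene of the main protein of high density lipoprotein, had 164, 148, 22.6 and 561 in Men1 KO, against 28.4, 35.1, 47.4 and 109.9 in wild type, in the same order of Men1 KO libraries. Alb and Apoa1 were not called, with adjusted p-values of 0.369 and 0.313 in the authors' deposited table.

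Fgb, the gene of the fibrinogen beta chain, followed with 54.8, 55.2, 8.89 and 206 normalized counts in Men1 KO, against 5.91, 10.5, 25.1 and 34.2 in wild type. Cps1, which encodes the first enzyme of the urea cycle, had 33.0, 23.97, 2.43 and 118 in Men1 KO, against 5.91, 7.03, 10.6 and 13.5 in wild type. Hpx, Ambp, Apoh, Apoc3, Apoa4, Serpina1a, Saa1 and Saa2 were likewise highest in library KO-6086. Saa1 and Saa2 encode acute phase serum amyloid A proteins of close sequence, and neither was called (adjusted p 0.173 and 0.174 in the authors' deposited table). Of 25 lipoprotein and sterol genes, the table holds Apob, Apoa1 and Apoa4 alone.

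Summed over the 14 genes, levels were 1636, 1441, 837 and 4903 normalized counts in Men1 KO, against 451, 563, 782 and 1012 in wild type. Library KO-6086 was the highest of all 8 libraries in 13 of the 14 genes, with Azgp1 the exception, and library KO-6084 was the lowest in 6. Without library KO-6086, all 14 genes had a higher mean in Men1 KO, 8 of them by at least 2-fold. The median log2 ratio was then 1.01, against 1.85 with it. The 14 genes had been picked on the same libraries, so their direction here is no test of stability. Azgp1 and Apob did not follow the other members, since library KO-6084 had 484 and 116 normalized counts of them while its Alb level was the lowest of all 8. A further 32 genes known from liver, put together after their values were seen, were all listed higher. None was called, but only 12 of them carry an adjusted p and could be. Of the 32, 27 were highest in library KO-6086. Examples are F2, the gene of prothrombin, with 36.8, 44.3, 25.9 and 108 in Men1 KO, against 27.2, 19.9, 22.2 and 28.0 in wild type, and Mup20, a major urinary protein gene, with 34.0, 33.4, 4.04 and 139 in Men1 KO, against 3.55, 2.34, 13.5 and 25.9 in wild type. The part of liver RNA or of single libraries in the levels of these genes was not tested.

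**Figure D4:**
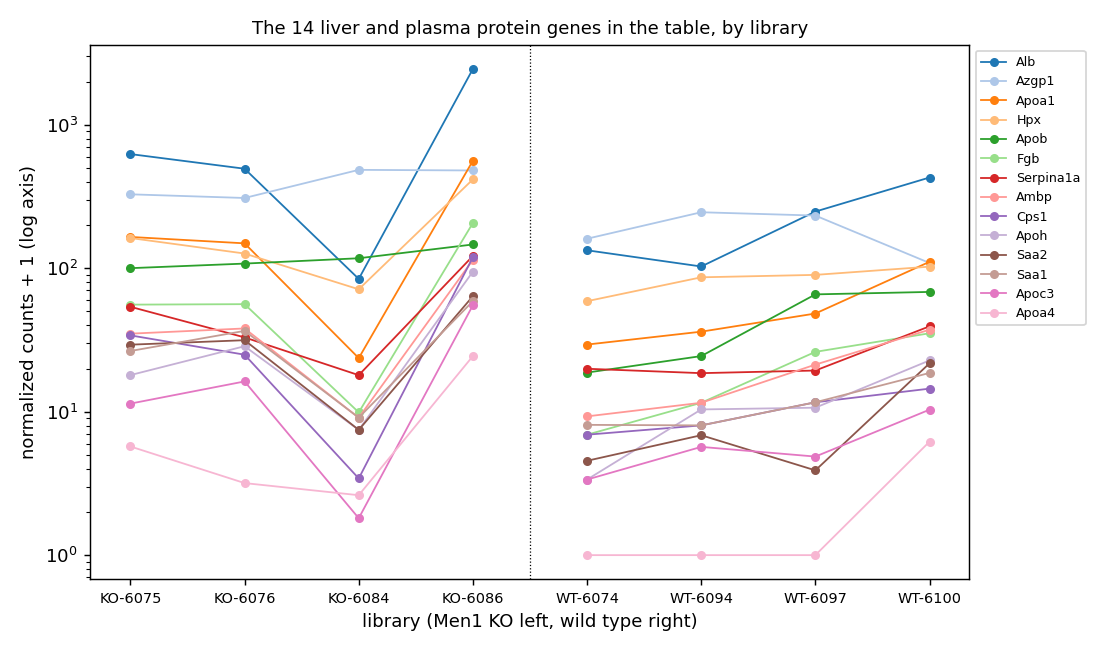
Normalized counts with 1 added (log axis) of the 14 liver and plasma protein genes in each library, Men1 KO left of the dotted line and wild type right of it, with a line joining the values of 1 gene within a group. Most genes peak in library KO-6086 and dip in library KO-6084, while Azgp1 and Apob stay nearly level across Men1 KO.

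The secretory cells of the airways are represented by 4 of 22 listed genes, all listed higher in Men1 KO, with Dmbt1 the only called one. Retnla encodes resistin-like molecule alpha, a secreted protein of airway epithelium and of macrophages under type 2 cytokines. It had the highest normalized counts of the table, which are not corrected for gene length, with 12156, 4586, 26356 and 21349 normalized counts in Men1 KO, against 2396, 11510, 5033 and 5453 in wild type. The groups overlapped, because library KO-6076 and library WT-6094 lay against the direction of their groups. Muc5ac, a gel-forming mucin of goblet cells, had 127, 42.8, 194 and 202 in Men1 KO, against 50.8, 91.3, 46.4 and 69.5 in wild type. Agr2, an endoplasmic reticulum protein needed for mucin folding, had 29.3, 14.5, 53.4 and 67.8 in Men1 KO, against 8.28, 18.7, 18.4 and 21.8 in wild type. In these 3 genes library KO-6076 was the lowest of Men1 KO and libraries KO-6084 and KO-6086 were the highest of all. Their adjusted p-values are 0.322 for Retnla, 0.176 for Muc5ac and 0.196 for Agr2 in the authors' deposited table.

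A further 8 epithelial genes, put together after their values were seen, were all listed higher and none was called. Anxa8, an annexin of epithelia, had 467, 248, 910.2 and 706 normalized counts in Men1 KO, against 189, 249, 218 and 238 in wild type, with an adjusted p of 0.0767 in the authors' deposited table. Klk1, a tissue kallikrein, had 106, 84.2, 196 and 229 in Men1 KO, against 39.0, 111, 47.4 and 19.7 in wild type. Slurp1, a secreted protein of stratified epithelia, had 54.8, 39.2, 137 and 92.5 in Men1 KO, against 15.4, 71.4, 18.4 and 13.5 in wild type. Summed over the 8 genes, levels were 911, 501, 1836 and 1515 in Men1 KO, against 324, 721, 389 and 400.2 in wild type, in the same order of Men1 KO libraries as Retnla, and library KO-6076 again lay within the wild-type range. Scgb1a1, Scgb3a2 and the other 16 airway secretory genes have no row. Of 11 basal cell genes the table holds Krt14, a keratin of basal cells, with 16.1, 7.26, 29.9 and 17.3 in Men1 KO, against 10.6, 4.68, 4.83 and 4.15 in wild type, and it was not called.

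The genes of neutrophils, red cells and platelets described here were all listed lower in Men1 KO, and none of those with an adjusted p was called. Of 27 neutrophil genes, 3 are in the table. Camp, the cathelicidin of neutrophil granules, had 5.66, 47.2, 20.2 and 25.9 normalized counts in Men1 KO, against 41.4, 77.3, 148 and 79.8 in wild type (adjusted p 0.0604 in the authors' deposited table). Ngp, another granule protein gene, had 17.9, 113, 57.4 and 51.8 in Men1 KO, against 130.1, 82.0, 298 and 173 in wild type. Library KO-6076 overlapped with wild type in both. Mpo, the gene of myeloperoxidase, averaged 3.19 ± 2.60 in Men1 KO and 9.92 ± 6.06 in wild type (SD, n = 4 each) and carries no adjusted p. The neutrophil sum was 23.6, 163, 83.3 and 82.6 in Men1 KO, against 173, 169.8, 460.0 and 266 in wild type, with library KO-6076 just below the lowest wild-type library.

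Among erythroid genes, Slc4a1, the anion exchanger band 3 of the red cell membrane, had 34.0, 49.4, 39.6 and 33.3 normalized counts in Men1 KO, against 92.2, 59.7, 133 and 47.7 in wild type (adjusted p 0.104 in the authors' deposited table). Only the lowest wild-type library, WT-6100, was below a Men1 KO library. Epb42, which encodes protein 4.2 of the red cell membrane skeleton, averaged 4.01 ± 4.06 in Men1 KO and 10.1 ± 2.92 in wild type (SD, n = 4 each). Hemgn, which encodes an erythroid nuclear protein, averaged 2.68 ± 1.80 in Men1 KO and 10.5 ± 11.2 in wild type (SD, n = 4 each). Epb42 and Hemgn carry no adjusted p and could not be called. The globin genes, which define the red cell, have no row.

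Of 18 platelet genes, Ppbp and Gp9 are in the table. Ppbp encodes the platelet chemokine CXCL7, and had 701, 452, 748 and 466 normalized counts in Men1 KO, against 899, 2797, 794 and 583 in wild type. Gp9, a chain of the platelet receptor for von Willebrand factor, had 195, 163, 153 and 175 in Men1 KO, against 213, 733, 237 and 196 in wild type. Library WT-6094 was far above the rest in both genes. Without it the log2 ratio of group means was -0.36 for Ppbp, against -1.10 with it, and -0.33 for Gp9, against -1.01 with it. The part of blood left in the tissue in these levels was not tested.

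Variable genes of immunoglobulins number 21 in the table, 14 of them with an adjusted p. Of the 21, 6 were listed higher and 15 lower, with a median log2 fold change of -1.33 and none called. Each marks the antibody rearrangements of particular B cell or plasma cell clones. Their sum was 376, 306, 355 and 663 normalized counts in Men1 KO, against 1146, 326, 784 and 935 in wild type, with library WT-6094 within the Men1 KO range. Several were carried by 1 library of a group. Ighv1-20 had 20.8, 42.1, 4.04 and 224 in Men1 KO, against 0, 0, 0.966 and 10.4 in wild type. Ighv1-70, annotated as a pseudogene, had 92.5 in library KO-6075 and at most 2.47 in any other library. Igkv4-50 was lower, at 18.9, 22.5, 33.1 and 19.7 in Men1 KO, against 78.0, 8.20, 31.9 and 274 in wild type. None of 28 B cell and plasma cell genes outside the variable segments, the constant regions and Jchain included, is in the table. The 4 variable genes of the T cell receptor were all listed higher and none was called, but only 1 of them, Trbv2, carries an adjusted p. Trbv2 had 15.1, 21.1, 21.02 and 14.8 in Men1 KO, against 7.09, 7.03, 10.6 and 8.29 in wild type, without overlap.

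Among 34 genes of xenobiotic metabolism, 5 are in the table, 3 of them with an adjusted p. Of the 5, 4 were listed higher and 1 lower, and none was called. Cyp1a1, the cytochrome P450 that the aryl hydrocarbon receptor induces, was the lower one, with 266, 488, 107 and 233 normalized counts in Men1 KO, against 549.8, 762, 775 and 652 in wild type. The groups did not overlap, and its adjusted p is 0.133 in the authors' deposited table. Cyp1a2, another target of that receptor, was listed higher, with 1.89, 8.72, 2.43 and 19.7 in Men1 KO, against 0, 0, 3.87 and 3.11 in wild type. Cyp2b19 had 18.9, 18.2, 51.7 and 32.1 in Men1 KO, against 9.46, 11.7, 11.6 and 12.4 in wild type, without overlap and with an adjusted p of 0.113 in the authors' deposited table. Cyp2a4, which shares much of its sequence with Cyp2a5, had 31.2, 24.7, 27.5 and 85.1 in Men1 KO, against 21.3, 26.9, 16.4 and 8.29 in wild type.

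Among genes with proper symbols, at least 50 normalized counts in the higher group and no overlap, 6 were higher and 4 lower. The table has 60 genes at that level, with symbols of any kind. Over all 772 genes, 25.3% were higher without overlap and 10.2% lower. Of the genes with proper symbols counted here, Selenbp2 and Cd209g are those that belong to no group above. Selenbp2, a selenium-binding protein gene, had 227, 359, 42.8 and 75.2 normalized counts in Men1 KO, against 42.6, 30.4, 41.6 and 42.5 in wild type. Libraries KO-6075 and KO-6076 were high, library KO-6084 was at the wild-type level, and the adjusted p is 0.110 in the authors' deposited table. Its close relative Selenbp1 has no row, and reads may be divided between them. Cd209g, a C-type lectin gene of the mouse DC-SIGN family, had 36.8, 20.3, 9.70 and 28.4 in Men1 KO, against 176, 39.8, 46.4 and 54.9 in wild type. Library WT-6074 was far above the others, and the adjusted p is 0.0767 in the authors' deposited table. Without library WT-6074 the log2 ratio of Cd209g was -0.98, against -1.74 with it.

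From lists with a single further member, Lep, the leptin gene of adipocytes, had 4.72, 0.726, 0.808 and 6.16 normalized counts in Men1 KO, against 36.7, 1.17, 32.9 and 13.5 in wild type. Library WT-6094 lay within the Men1 KO range, and the other 13 adipocyte genes have no row. Cel, a lipase of the exocrine pancreas and, beside Rbp2, the only 1 of 25 pancreas and gut genes in the table, was low everywhere, with at most 1.23 normalized counts in Men1 KO and 2.90 to 5.91 in wild type. No member was found among 37 targets and partners of menin and MLL, the Hox genes and the cell cycle inhibitor genes Cdkn1b and Cdkn2c included. The same holds for 30 interferon response genes, 30 cell cycle genes, 54 cytokine and chemokine genes, 36 genes of Wnt, FGF and Hedgehog signalling and 25 complement genes. These lists do not hold every gene of their kind. Wnt6, the complement gene C8a and the interferon-inducible Ifi27l2b are outside them but in the table. They were listed higher, with log2 fold changes of 1.66, 2.63 and 1.75 in the authors' deposited table. Wnt6 was not called (adjusted p 0.0819), and C8a and Ifi27l2b carry no adjusted p.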

How the data were processed

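Total RNA was made into libraries with an unstranded kit, NEBNext Ultra, per the labels' protocols. The tools DESeq2 1.16.1, HISAT2 2.0.5 and featureCounts 1.5.0-p3 are listed per the submitters' processing notes, as are the builds mm10 and GRCm38, all without roles. The read counts per gene, the normalized counts (a signal per library, each count divided by 1 size factor), the log2 fold changes and the p-values and adjusted p-values were used as deposited by the authors. Another 2 wild-type columns match no label and were not used. IDs were matched to GENCODE M21, in which 260 of 772 are absent; 231 genes have no symbol.

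As the table holds selected genes, no new genome-wide test was made. A call is the authors' deposited adjusted p below 0.05. The number of tests was read from adjusted p divided by p, where 70 ranks came out whole within 1e-06. Group means with their SDs and log2 ratios come from the normalized counts, and exact permutation tests from their log2 values with 1 added. As alternatives, edgeR 4.0.16 (quasi-likelihood) and DESeq2 1.42.0 were run on the counts in R 4.3.3, with Benjamini-Hochberg adjustment over 18573 tests, and checked on simulated counts. No pair of libraries had equal reads in more than 21.6% of genes. Depth per sample is unknown, so no counting intervals are given. Named genes are the called genes, genes with symbols that are neither provisional nor of pseudogenes, without overlap and with a mean of at least 50 in the higher group (up to 15 in each direction), and up to 4 members of each list with the smallest p. Others named (Alb, Fgb, Cps1 and further liver genes, Anxa8, Klk1, Slurp1, the variable genes and Cyp1a2) were chosen after their values were seen. The comparison, its members and the gene lists were chosen with earlier results of these data known. Some genes are not reported here.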

Additional observations from a re-analysis of the deposited data

Results flagged for a closer look

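For the 42 genes named by rule, each group of 4 libraries was searched for 1 library whose gap to the nearest other was larger than Dixon's test allows for the range of the group. This marked 14 of 84 groups (16.7%). The 5% that the test gives by chance holds for independent, normally distributed values, which normalized counts need not be. A group with reads in a single library is marked whatever its count, as for Apoa4 and Cyp4a12a in wild type. Genes of the same list, such as Gp9 and Ppbp, may also vary together. The share therefore cannot show more marked groups than by chance, and the marks only describe these libraries.

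Library KO-6086 stood apart in 3 genes. Dmbt1 was at 240 normalized counts there and at 4.72 to 11.3 in the other Men1 KO libraries. Apoa4 was at 23.4 there and at 1.62 to 4.72 in the others, and Cyp2a4 was at 85.1 there and at 24.7 to 31.2 in the others. Hebp2 was lowest in library KO-6075, at 103, with 113 to 115 in the others. Hemgn was at 0 in library KO-6076 and at 3.23 to 3.78 in the others.

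Library WT-6094 was highest in both platelet genes, with Gp9 at 733 against 196 to 237 in the other wild-type libraries and Ppbp at 2797 against 583 to 899. It was lowest in Selenbp2, at 30.4, with 41.6 to 42.6 in the others. Library WT-6100 was highest in Saa2 (20.7, others 2.90 to 5.85), in Apoa4 (5.18, others 0) and in Cyp4a12a (1.04, which is 1 read, others 0). Library WT-6074 was highest in Cd209g (176, others 39.8 to 54.9) and in Krt14 (10.6, others 4.15 to 4.83). Library WT-6097 was highest in Hemgn, at 27.1, with 3.51 to 7.09 in the others. Without library WT-6097 the log2 ratio of Hemgn was -0.88, against -1.97 with it. None of these libraries was left out of the values given in the report.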

How the results depend on the processing

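The number of called genes was 13 by the authors' adjusted p. Tests refitted on the 772 selected genes, with adjustment over 18573 tests, called 1 gene by edgeR with the authors' size factors, 1 with size factors computed within the table, 1 without a filter on low counts, 1 with a mean of at least 10 reads, and 1 by DESeq2, each time Gm6314. With TMM scaling within the table edgeR called 4, all lower in Men1 KO and 2 of them among the 13. That scaling moved the median of all genes by -0.73 on the log2 scale, so the direction of these calls goes with the shift. None of these fits on all 8 libraries called a higher gene, and leaving out 1 library gave up to 3 such calls. Leaving out each library in turn gave 1 to 4 calls by edgeR: 3 without KO-6075, 4 without KO-6076 or KO-6084, 2 without KO-6086 or WT-6100, and 1 without WT-6074, WT-6094 or WT-6097. At an unadjusted p below 0.05 edgeR passed 670 of the 772 genes, 11 of the 13 called ones among them, and DESeq2 511. The refits estimate the spread from the selected genes alone, and whether this lowers their counts was not tested.

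The number of genes without overlap was 274, was 70 of 235 (29.8%) with a mean of at least 10 normalized counts, 185 with size factors within the table, and 325 to 390 without 1 library. Leaving out a library cannot lower this number, since fewer values have to lie apart, so that rise shows nothing of stability. The share listed higher was 72.3% with a mean of at least 10, and 70.1% without any 1 library. Scaling within the table moved the median of all genes by -0.70 (size factors) and -0.73 (TMM) on the log2 scale. Genes were picked on these 8 libraries at a log2 change of at least 1, so a share of 70.1% under these scalings or without 1 library shows nothing of stability. Size factors within the table come from genes picked for a difference, most of them listed higher, so they take up part of that difference. The count of 185 rests on this scaling. By it the log2 ratio of Azgp1 was 0.39 (from 1.10), that of Hebp2 0.47 (from 1.14) and that of Fst 0.49 (from 1.17). These moves are close to the shift of -0.70 and show nothing further about the single genes. With a pseudocount of 10 the ratio of Gm6314 was -4.03 (from -7.04), that of Dmbt1 2.71 (from 5.37), that of Crh 1.32 (from 2.26), that of Rbp2 1.48 (from 2.44) and that of Hmgb1-ps8 1.54 (from 2.55). From mean log2 values with 1 added, Gm6314 was at -6.18 and Dmbt1 at 2.92. Of 460 values of the 42 named genes under the alternatives, 427 moved by less than the spread between replicates, 33 by more and 0 reversed, but scalings and pseudocounts on the means could not turn a sign here. Of 63 medians of lists, 6 moved and 0 reversed. List members had been picked on the same libraries at a log2 change of at least 1, and some lists share members, so this is no test of stability. Besides the values in the report, leaving out 1 library moved Hmgb1-ps8 to 3.47 (without WT-6097, from 2.55), Selenbp2 to 1.55 (without KO-6076, from 2.16), Epb42 to -2.29 (without KO-6086, from -1.33), Saa2 to 2.97 (without WT-6100, from 1.96), Apoa1 to 1.02 (without KO-6086, from 2.02), Apoa4 to 1.13 (from 2.62) and Cyp2a4 to 0.61 (from 1.21), both without KO-6086. Cyp4a12a, with 1 read in wild type, also moved by over 1.5-fold without KO-6086. Apoa4 and Cyp4a12a have no ratio without library WT-6100, the only wild-type library above 0. An alternative chosen after seeing the data left out KO-6086, the highest library in 13 of the 14 liver genes. By it 14 of 14 were higher in Men1 KO, which is no test of stability, as the genes were picked on these libraries. No paired analysis was possible because the groups share no replicate number.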
